A study of Mus musculus with 10 samples.

Results

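The genes described here encode the subunits of the mitochondrial respiratory chain and of ATP synthase, and they were measured in 2 populations of epithelial cells sorted from the mouse small intestine. They are the protein-coding genes of the mitochondrial genome and the nuclear protein-coding genes whose symbols mark them as subunits of complex I (Nduf), complex II (Sdh), complex III (Uqcr, Cyc1), cytochrome c (Cycs), complex IV (Cox4 to Cox8) or ATP synthase (Atp5). This gave 101 of the 54532 genes in the table, 13 mitochondrially encoded and 88 nuclear. Of the nuclear genes, 36 belong to complex I, 4 to complex II, 10 to complex III and cytochrome c, 20 to complex IV and 18 to ATP synthase. Ndufa4 and Ndufa4l2 were counted with complex IV despite their symbols. Another 13 matching names were not annotated as protein coding and were left out.

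Gucy2c-GFP mice of the outbred CD1/ICR stock (5 animals, 10 weeks old, matched by litter) were each sorted into cells with high GFP fluorescence (GUCY2Chi) and cells with medium fluorescence (GUCY2Cmed), 20000 cells per library and 5 libraries per group. GFP was driven by the promoter of Gucy2c, which encodes the guanylyl cyclase C receptor, so both groups carry the same transgene and differ in its activity. Cells were sorted by fluorescence intensity, not by cell type. The authors propose that the rare GUCY2Chi cells are neuropod cells, a kind of enteroendocrine cell, and treat the GUCY2Cmed population as the bulk epithelium. The sample titles call the latter Medium and its libraries Lo, and the numbers 2, 7, 12, 14 and 15 in the titles were taken as mouse numbers.

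The respiratory chain passes electrons from NADH and succinate to oxygen and pumps protons across the inner mitochondrial membrane, and ATP synthase uses the resulting gradient to make ATP. Complexes I, III, IV and ATP synthase combine subunits made from both genomes, whereas complex II and cytochrome c are wholly nuclear encoded. Mature absorptive enterocytes are rich in mitochondria, which power nutrient and ion transport.

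Library depth was even, with 10903958 to 15307932 counts on genes. Gucy2c was higher in GUCY2Chi cells (log2 fold change 1.71 ± 0.32 SE, adjusted p = 0.00187, edgeR quasi-likelihood test), and all 20 enteroendocrine markers were higher there. These markers summed to 44278 cpm in GUCY2Chi library 15, 106960 cpm in library 12 and 146540 to 175850 cpm in libraries 2, 7 and 14. Enterocyte markers were not evenly low across GUCY2Chi libraries. Their summed level was 6.0% to 7.1% of that in the GUCY2Cmed library of the same mouse for mice 2, 7 and 14, but 45.7% for mouse 12 and 42.3% for mouse 15. Counts of genes called are therefore given with and without GUCY2Chi libraries 12 and 15. The GUCY2Cmed libraries of the same mice were kept in those fits. GUCY2Chi libraries 12 and 15 also had the highest shares of respiratory chain counts in their group. Leaving them out thus lowers the GUCY2Chi mean of these genes in advance, and counts without those libraries are no separate support. Of 22 enterocyte markers 7 passed the test as lower (20 without those libraries), and of 15 proliferation markers 12 did (13). Of all genes tested 8.79% were called lower and 13.9% higher, and without those libraries 13.9% lower and 17.4% higher. The proliferation markers summed to 143 to 369 cpm in GUCY2Chi and 458 to 1031 cpm in GUCY2Cmed libraries. Forebrain neuron markers (3 of 16 higher, also without those libraries) summed to 484 to 2579 and 139 to 1381 cpm. T cell markers (0 of 10 called) summed to 28.8 to 262 and 31.3 to 176 cpm, and myeloid and B cell markers (0 of 5 called, and 1 higher without those libraries) to at most 9.3 cpm in any library. Dissociation response genes (1 of 15 higher, also without those libraries) reached 10893 and 5432 cpm in the GUCY2Chi and GUCY2Cmed libraries of mouse 7, against at most 1981 and 1483 in the other mice. Nuclear-retained RNAs (0 of 4 called) summed to 139 to 431 and 162 to 546 cpm. The part of these cell types and responses in the results below was not tested.

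Respiratory chain transcripts took a smaller share of the counts in GUCY2Chi cells than in GUCY2Cmed cells of the same mouse, for both genomes and in all 5 mice. In the GUCY2Cmed libraries of mice 2, 7, 12, 14 and 15, the 13 mitochondrially encoded genes took 1.02%, 0.936%, 2.44%, 1.65% and 2.37% of all counts on genes. In the GUCY2Chi libraries of the same mice they took 0.481%, 0.366%, 1.22%, 0.548% and 1.53%. The mean was 0.829% ± 0.515 (SD, n = 5) in GUCY2Chi and 1.68% ± 0.715 (SD, n = 5) in GUCY2Cmed libraries. The groups overlapped, because the levels differed between mice in both groups and were lowest in mice 2 and 7 among GUCY2Cmed libraries. Within a mouse the GUCY2Chi share was 33.2% to 64.7% of the GUCY2Cmed share.

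The 88 nuclear genes took 3.32%, 3.90%, 4.62%, 4.68% and 3.75% of the counts in GUCY2Cmed libraries of mice 2, 7, 12, 14 and 15. They took 1.43%, 1.52%, 3.07%, 1.51% and 3.04% in the GUCY2Chi libraries. The groups did not overlap, and GUCY2Chi libraries 12 and 15 stood apart from the other 3, just below the lowest GUCY2Cmed library. After TMM normalization the nuclear sum in GUCY2Chi cells was 29.1% to 60.9% of that in GUCY2Cmed cells of the same mouse, and the mitochondrial sum 29.3% to 45.8%. Counts on mitochondrially encoded genes per count on nuclear members spanned 0.24 to 0.50 in GUCY2Chi and 0.24 to 0.63 in GUCY2Cmed libraries, with no separation between the groups. In sorted bulk samples, fewer cells of a type and less RNA per cell cannot be told apart.

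**Figure D1:**
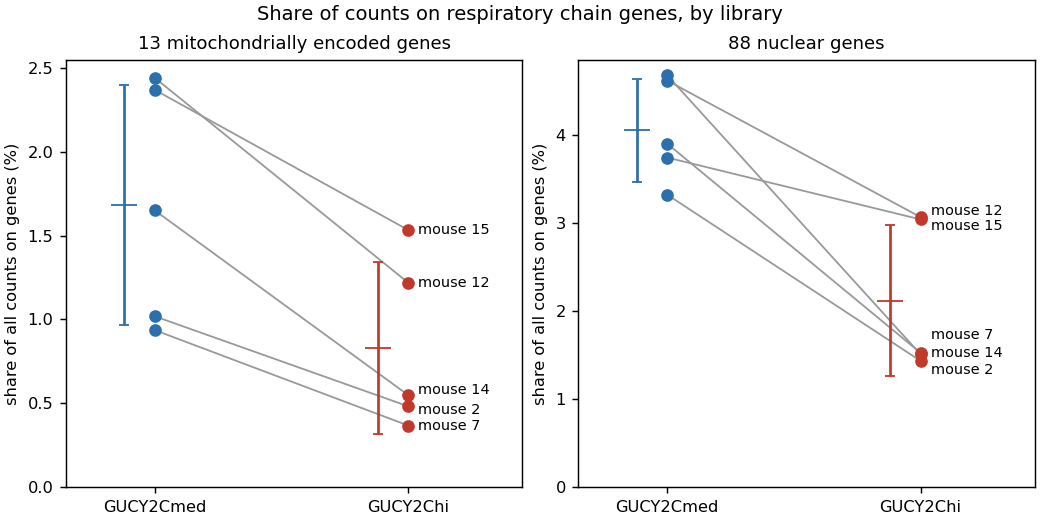
Share of all counts on genes (%, vertical axis) taken by the 13 mitochondrially encoded genes (left) and the 88 nuclear genes (right) in each library, with a line joining the 2 libraries of 1 mouse and bars for the mean ± SD of 5 libraries. Every line falls from GUCY2Cmed to GUCY2Chi, and mice 12 and 15 keep the highest GUCY2Chi values in both panels.

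The genome-wide test covered the 15703 genes that exceeded 0.5 cpm in 3 or more libraries, with a threshold of 0.01 on the adjusted p from edgeR's quasi-likelihood test. It called 8.79% of them lower and 13.9% higher in GUCY2Chi cells, 1381 and 2186 genes. With library sizes alone as the scale these were 557 lower and 2910 higher. The median log2 fold change over all genes was 0.09. Among the respiratory chain genes, 11 mitochondrially encoded and 81 nuclear genes passed the filter on low counts.

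Of the 81 nuclear genes tested, 21 were lower in GUCY2Chi cells and 0 higher, against 8.79% and 13.9% of all genes. Their median log2 fold change was -1.05 and 79 of 81 had a negative fold change. Complex II had 3 of 4 genes called lower (median -1.40), complex III with cytochrome c 4 of 10 (-1.16), ATP synthase 5 of 17 (-1.01), complex I 8 of 36 (-0.90) and complex IV 1 of 14 (-1.10). The 1 of 14 for complex IV was near the 8.79% of all genes. In 27 of 81 genes every GUCY2Chi library lay below every GUCY2Cmed library, against 13.2% of all genes, and 65 of 81 were lower in GUCY2Chi cells in every mouse, against 23.2% of all genes. At an adjusted p under 0.05 the nuclear genes called lower were 48 of 81, against 17.6% of all genes.

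Of the 11 mitochondrially encoded genes tested, none passed the threshold in either direction in the edgeR fit. All 11 had a negative log2 fold change, from -1.54 to -0.54 with a median of -1.22. At an unadjusted p under 0.05 there were 9, all lower, against 21.9% of all genes lower. DESeq2 called 2 lower, against 14.3% of all genes, and limma-voom 0, against 11.4%. With the mouse number as replicate block, edgeR called 8 of the 11 lower, against 4.96% of all genes lower in that fit, and 15 of the 81 nuclear genes. Without GUCY2Chi libraries 12 and 15, 9 of 11 mitochondrially encoded and 72 of 81 nuclear genes were called lower, against 13.9% of all genes. That fit kept the GUCY2Cmed libraries of mice 12 and 15, which had the highest mitochondrial shares of all libraries (2.44% and 2.37%). Without both libraries of these mice, a fit added after the data were seen, 2 of 11 and 57 of 81 were lower. Of all 15703 genes, 1544 were lower in that fit.

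**Figure D2:**
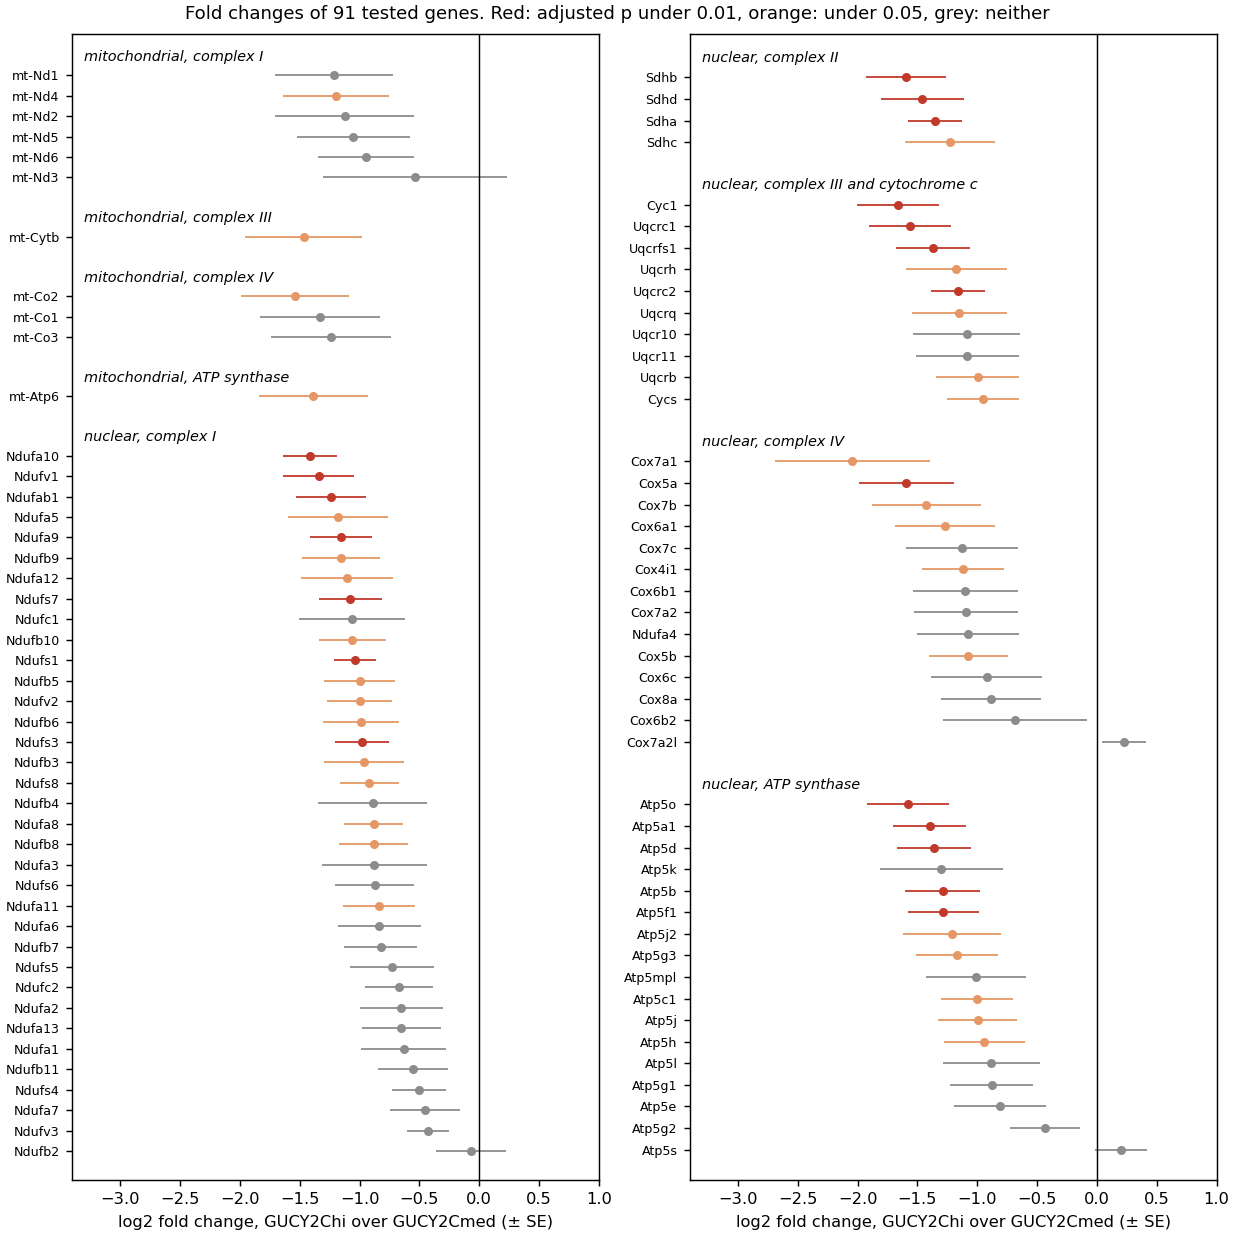
Log2 fold change of GUCY2Chi over GUCY2Cmed (horizontal axis, points with ± SE) for 91 of the 92 respiratory chain genes tested, grouped by genome and complex and ordered by fold change. Red points passed an adjusted p of 0.01 and orange points 0.05, and all points lie left of 0 except Cox7a2l and Atp5s.

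The number of nuclear genes called depended on single libraries. Leaving out GUCY2Chi library 2, 7, 12, 14 or 15 gave 3, 8, 37, 5 or 24 nuclear genes called lower, and leaving out GUCY2Cmed library 2, 7, 12, 14 or 15 gave 13, 12, 4, 3 or 4. The share of all genes called lower in these fits was 3.22%, 3.73%, 8.99%, 4.51% and 10.2% in the same order for the GUCY2Chi libraries and 4.29%, 6.13%, 4.68%, 3.43% and 3.37% for the GUCY2Cmed libraries, so the counts of 3 to 5 among 81 genes were near the background. Ndufa10, Ndufs1 and Sdha were called lower in all 24 alternatives tried, and no other respiratory chain gene was.

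Complex I, the entry point for electrons from NADH, has 7 core subunits from each genome. Ndufs1, its largest core subunit and a carrier of iron-sulfur clusters (chromosome 1, 63143596 to 63176833 on GRCm38), stood at 158, 222, 119, 159 and 162 cpm in GUCY2Cmed libraries of mice 2, 7, 12, 14 and 15. In the GUCY2Chi libraries it stood at 90.6, 68.7, 75.1, 78.1 and 87.1 cpm. The GUCY2Chi libraries lay close together, with 12 and 15 both lower than library 2, and below every GUCY2Cmed library. Ndufs1 fell by 1.04 on the log2 scale (SE 0.18, adjusted p = 0.00127).

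Ndufa10, an accessory subunit (chromosome 1, 92439010 to 92473860), stood at 327, 483, 315, 429 and 343 cpm in GUCY2Cmed and 138, 98.6, 203, 120.3 and 154 cpm in GUCY2Chi libraries. It had the smallest adjusted p of all members (0.000833, log2 fold change -1.41 ± 0.23 SE). Ndufv1, which binds NADH and flavin mononucleotide, stood at 634 ± 116 cpm (SD, n = 5) in GUCY2Cmed and 250.4 ± 106 cpm (SD, n = 5) in GUCY2Chi cells and fell by 1.34 (adjusted p = 0.00497, edgeR). The core subunits Ndufs3 and Ndufs7 fell by 0.98 and 1.08 on the log2 scale (adjusted p from edgeR 0.00616 and 0.00825). The core subunits Ndufs8 (log2 fold change -0.92) and Ndufv2 (309.8 ± 119 cpm in GUCY2Chi and 619.6 ± 113 cpm in GUCY2Cmed cells, SD, n = 5 each) did not pass (adjusted p = 0.0124 and 0.0134, edgeR). The accessory subunit Ndufa9 and the acyl carrier protein Ndufab1 fell by 1.16 and 1.24. Among the accessory subunits, Ndufb2 had a log2 fold change of -0.07, with 5.25, 5.91, 9.99, 4.70 and 9.19 cpm in GUCY2Chi and 4.87, 5.70, 8.86, 9.09 and 8.22 cpm in GUCY2Cmed libraries.

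The mitochondrially encoded complex I core genes mt-Nd1, mt-Nd2, mt-Nd4, mt-Nd5 and mt-Nd6 had log2 fold changes of -1.22, -1.12, -1.20, -1.05 and -0.95, none past the threshold (adjusted p 0.0494 to 0.15). mt-Nd1 stood at 1767, 1773, 5130.4, 3375 and 5102 cpm in GUCY2Cmed libraries of mice 2, 7, 12, 14 and 15. In the GUCY2Chi libraries it stood at 869, 559, 2354, 1037 and 2561 cpm. GUCY2Chi libraries 12 and 15 lay above GUCY2Cmed libraries 2 and 7, but each GUCY2Chi library lay below the GUCY2Cmed library of its own mouse. With the replicate block mt-Nd1, mt-Nd4 and mt-Nd5 were called lower (adjusted p = 0.00963, 0.00748 and 0.00934, edgeR), while mt-Nd2 and mt-Nd6 were not (0.0104 and 0.0114). mt-Nd3, with 127 counts over all libraries, was lower in 3 of 5 mice (-0.54, adjusted p = 0.635). mt-Nd6 is the only one of the 13 transcribed from the other strand, and the files do not say whether the counting used strand.

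Complex II, succinate dehydrogenase, also belongs to the citric acid cycle. Sdha, the flavoprotein that oxidises succinate (chromosome 13, 74322254 to 74350280), stood at 729, 859.5, 552, 739.5 and 861 cpm in GUCY2Cmed and 276, 202, 358, 255 and 376 cpm in GUCY2Chi libraries. The groups lay well apart, and Sdha fell by 1.35 on the log2 scale (SE 0.22, adjusted p = 0.00108, edgeR). The iron-sulfur subunit Sdhb fell by 1.60 (adjusted p = 0.00371) and the membrane anchor Sdhd fell by 1.46 (adjusted p = 0.0071). Sdhc, the other anchor, did not pass (log2 fold change -1.23, adjusted p = 0.0222) but did so with the replicate block (0.00799).

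Complex III hands electrons from ubiquinol to cytochrome c. Cyc1, cytochrome c1 (chromosome 15, 76343523 to 76346260), stood at 1265, 1719, 1613, 1694 and 1560.0 cpm in GUCY2Cmed and 351, 259, 826, 318 and 732 cpm in GUCY2Chi libraries. It had the largest fold change among the nuclear genes that passed, -1.66 on the log2 scale (SE 0.34, adjusted p = 0.00337). The Rieske protein Uqcrfs1 fell by 1.37 and the core proteins Uqcrc1 and Uqcrc2 by 1.56 and 1.16. The electron carrier Cycs did not pass (-0.95 on the log2 scale, adjusted p = 0.0265).

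mt-Cytb, the cytochrome b of complex III, was the most abundant mitochondrially encoded gene by FPKM, with 5080.2 ± 2134 FPKM (SD, n = 5) in GUCY2Cmed and 2249.8 ± 1333 FPKM (SD, n = 5) in GUCY2Chi cells. On the cpm scale it stood at 3475, 3685, 9186, 6221 and 10097 in GUCY2Cmed libraries of mice 2, 7, 12, 14 and 15, and at 1562, 825, 3775, 1774 and 3883 in the GUCY2Chi libraries. Mice 12 and 15 were high in both groups. Its log2 fold change was -1.47 ± 0.49 SE (adjusted p = 0.033, and 0.00868 with the replicate block, edgeR).

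Complex IV, cytochrome c oxidase, reduces oxygen with its mitochondrially encoded subunits mt-Co1, mt-Co2 and mt-Co3, which had log2 fold changes of -1.33, -1.54 and -1.24 (adjusted p = 0.0532, 0.0182 and 0.0701). With the replicate block all 3 passed (0.0082, 0.00782 and 0.00625, edgeR). mt-Co1 stood at 3094, 2694, 7939.5, 5279 and 8210.5 cpm in GUCY2Cmed and 1176, 820.4, 3764, 1604 and 3451 cpm in GUCY2Chi libraries. Of the nuclear subunits around this core, only Cox5a passed, and it fell by 1.59 on the log2 scale (adjusted p = 0.00877). Cox4i1 stood at 1697 ± 406 cpm (SD, n = 5) in GUCY2Cmed and 783 ± 387 cpm (SD, n = 5) in GUCY2Chi cells (log2 fold change -1.12, adjusted p = 0.0232), and Cox5b gave similar values (-1.08, adjusted p = 0.0232).

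Several complex IV subunits exist as tissue isoforms, and both populations had most of their signal on the general ones. By FPKM, which is per length, Cox4i1, Cox6a1, Cox6b1, Cox7a2, Cox7b, Cox8a and Ndufa4 stood at 2546, 1156, 944, 500.2, 403, 676 and 563 in GUCY2Cmed cells and at 1415, 583, 535, 283, 181, 445 and 326 in GUCY2Chi cells (means of 5). Cox4i2, Cox6a2, Cox7b2, Cox8b and Ndufa4l2 had 10, 27, 13, 2 and 19 counts over all 10 libraries and were not tested. Cox8c, a testis isoform, had 0 counts, which allows 0.181 to 0.281 cpm per library (3 counts, counting error only). The testis isoform Cox6b2 was tested on 101 counts (log2 fold change -0.69, adjusted p = 0.413).

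Cox7a1, known as the heart and skeletal muscle isoform (chromosome 7, 30184144 to 30186078), was detected at a low level. It stood at 16.6, 18.8, 28.4, 35.1 and 16.4 cpm in GUCY2Cmed and 1.75, 2.35, 13.6, 0.848 and 9.38 cpm in GUCY2Chi libraries. The groups did not overlap, and the values in GUCY2Chi libraries 12 and 15 exceeded those in the other 3. Its log2 fold change of -2.04 ± 0.65 SE had the largest size among the members, but it did not pass (adjusted p = 0.0267).

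Cox7a2l, a relative of the Cox7a subunits that takes part in joining complexes III and IV into supercomplexes (chromosome 17, 83501919 to 83514333), did not share their low values in GUCY2Chi cells. It stood at 119.7, 152, 138, 143 and 135 cpm in GUCY2Cmed and 149.6, 148, 130.1, 238 and 139 cpm in GUCY2Chi libraries. The groups overlapped throughout, with the highest value in GUCY2Chi library 14. Its log2 fold change was 0.22 ± 0.18 SE (adjusted p = 0.376). In the NCBIM37 reference genome, 93.6% of its transcript length has copies elsewhere at an identity of 97% or more, so its count is uncertain. The difference between Cox7a2l and the other members was not tested.

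**Figure D3:**
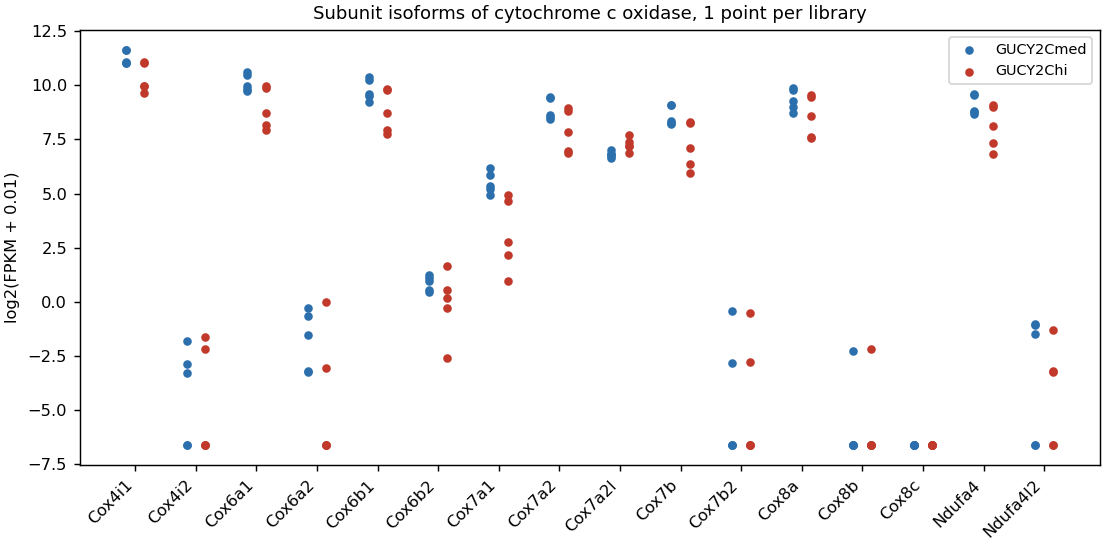
Level of complex IV subunit isoforms as log2(FPKM + 0.01) (vertical axis), with 1 point for each of the 5 GUCY2Cmed and 5 GUCY2Chi libraries. The general isoforms stand high in both groups, Cox7a1 is at 47.7 FPKM in GUCY2Cmed and 13.8 FPKM in GUCY2Chi cells on average, and Cox4i2, Cox7b2, Cox8b and Cox8c lie at or near 0 counts.

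ATP synthase consists of a catalytic head, a stalk and a membrane ring. Atp5b, its catalytic beta subunit and the most abundant member by FPKM in both groups, stood at 5122, 5697, 6498, 7198 and 7673 cpm in GUCY2Cmed and 1954, 1522, 3959.8, 2482 and 3252 cpm in GUCY2Chi libraries. It fell by 1.29 on the log2 scale (SE 0.31, adjusted p = 0.00774). The alpha subunit Atp5a1, the delta subunit Atp5d, the stalk subunit Atp5f1 and the connecting subunit Atp5o also fell, by 1.40, 1.36, 1.28 and 1.58. The gamma subunit Atp5c1 did not pass (-1.002 on the log2 scale, adjusted p = 0.0207). The genes Atp5g1, Atp5g2 and Atp5g3, which encode the same ring subunit c, had log2 fold changes of -0.88, -0.43 and -1.17, none past the threshold. The symbol Atp5o has another entry in the table with 0 counts.

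mt-Atp6, which faces the membrane ring, did not pass (log2 fold change -1.39, adjusted p = 0.0311) and did so with the replicate block (0.00832, edgeR), and mt-Atp8 had 27 counts in all and was not tested. Atp5s, coupling factor B, stood at 15.9, 28.1, 16.9, 19.4 and 14.2 cpm in GUCY2Cmed and 25.8, 19.96, 18.02, 26.6 and 18.6 cpm in GUCY2Chi libraries, with overlapping groups (log2 fold change 0.20, adjusted p = 0.51).

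With the replicate block, 7 of the 21 nuclear genes above no longer passed in edgeR, among them Atp5b, Ndufa9, Ndufab1, Ndufs3, Ndufs7 and Sdhd (adjusted p = 0.013, 0.0123, 0.0106, 0.0143, 0.0151 and 0.0102), with log2 fold changes from -1.57 to -1.01. The genes that did not pass without GUCY2Chi libraries 12 and 15 were Atp5g2, Atp5s, Ndufa7, Ndufb2, Ndufs4, Ndufs5, Ndufv3, Cox6b2 and Cox7a2l among the nuclear and mt-Nd3 and mt-Co3 among the mitochondrially encoded.

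The shortest nuclear genes did not pass. Split into 3 equal groups by the gene length behind the deposited FPKM, a split chosen after the values were seen, the 27 shortest genes (402 to 588 bases) had 0 called lower, the 27 in the middle (592 to 921 bases) 9 and the 27 longest (922 to 2665 bases) 12. The median log2 fold changes were -0.998, -1.076 and -1.038, within 0.1 of each other. The median standard errors were 0.416, 0.314 and 0.305, and the median SD of log2 cpm among GUCY2Chi libraries was 0.935, 0.634 and 0.634. The median level was 110, 219 and 345 cpm, so the shortest group also had the lowest counts. The parts of length and level were not tested. The summed level of the shortest group was 17.9% to 35.0% of that of the longest in GUCY2Chi and 19.5% to 28.9% in GUCY2Cmed libraries. Without GUCY2Chi libraries 12 and 15, 24 of 27 passed in each group. The short genes include most small subunits of complexes III and IV, such as Uqcr10, Uqcr11, Cox6b1, Cox7c and Cox8a.

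**Figure D4:**
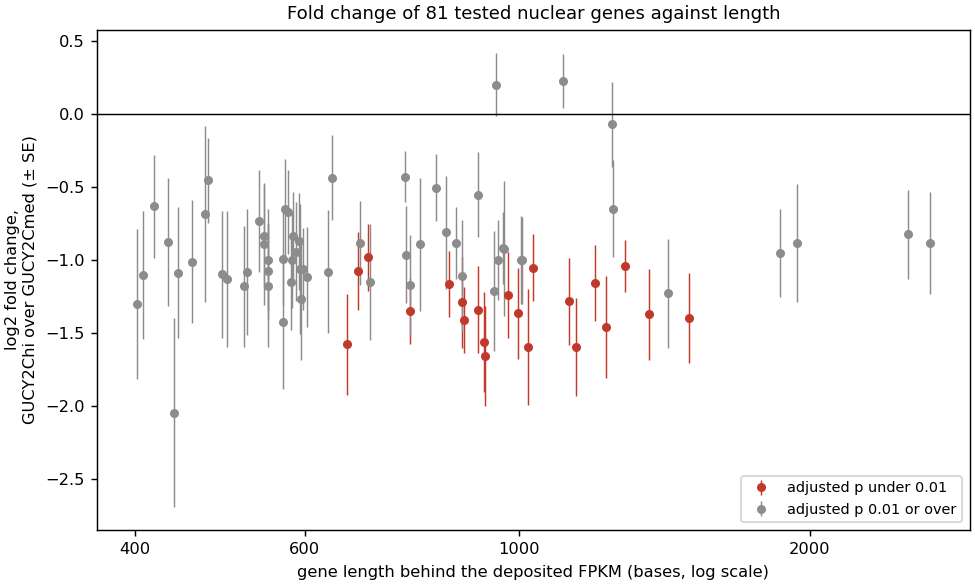
Log2 fold change (vertical axis, ± SE) of the 81 nuclear genes tested against the gene length behind the deposited FPKM (horizontal axis, bases on a log scale), with genes past an adjusted p of 0.01 in red. The shortest genes centre on the same fold change as the rest, with longer error bars and no red points.

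Counts on several mitochondrially encoded genes are uncertain because the nuclear genome holds identical copies of them. In the NCBIM37 genome, 100% of the length of mt-Co2, mt-Atp8, mt-Atp6, mt-Co3 and mt-Nd4l, 99.1% of mt-Nd3 and 63.6% of mt-Nd4 has an identical copy on chromosome 1. For mt-Nd1, mt-Nd2, mt-Co1, mt-Nd5, mt-Nd6 and mt-Cytb no alignment was identical throughout, so they count here as without an identical copy. At an identity of 97% or more, however, nuclear copies cover 100% of mt-Co1 and 9.8% of mt-Nd2, so the mt-Co1 count is also uncertain. The 7 genes with an identical copy stood at 1.17 to 645 FPKM on average in GUCY2Cmed cells and the 6 without at 341 to 5080.2 FPKM. The latter include mt-Co1, at 3137 FPKM. The lowest were mt-Nd4l, mt-Atp8 and mt-Nd3, with 50, 27 and 127 counts over all libraries, and the first 2 were not tested. Whether the CD1/ICR mice carry the copy on chromosome 1 is not known from the files.

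The table also counts 7 pseudogenes that lie side by side at 24611535 to 24616197 of chromosome 1 on GRCm38, in the order of a stretch from mt-Co1 to mt-Nd4. The 5 inner ones differ by at most 3 bases in length from their mitochondrial genes, while Gm29216 (492 bases) and Gm28439 (876 bases) are shorter than mt-Co1 (1545 bases) and mt-Nd4 (1378 bases). Gm10925, in the place of mt-Atp6, had 846, 1777, 12181, 5731 and 4198 counts in GUCY2Cmed libraries of mice 2, 7, 12, 14 and 15, where mt-Atp6 itself had 876, 1618, 4230, 2439 and 2575. Gm28661, in the place of mt-Co2, took 46.5% to 58.7% of the counts of the pair, and Gm28437, in the place of mt-Co3, 46.0% to 55.1%. The summed level of pseudogene and mitochondrial gene in GUCY2Chi cells was 18.5% to 49.8% of that in GUCY2Cmed cells of the same mouse for mt-Co2, 22.5% to 62.1% for mt-Co3 and 16.7% to 62.8% for mt-Atp6. The pseudogenes' own log2 fold changes were -1.36 for Gm28661, -1.04 for Gm28437 and -2.16 for Gm10925 (adjusted p = 0.0273, 0.128 and 0.0209, edgeR), none past the threshold. Among the nuclear members, 12 of 87 compared had copies of at least 97% identity over more than 50% of their length, so their counts are uncertain as well. Among them were Atp5g2, Cox5b and Uqcr11 and, of the genes called lower, Atp5o (85.0%), Ndufs3 (84.4%) and Atp5f1 (54.3%).

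**Figure D5:**
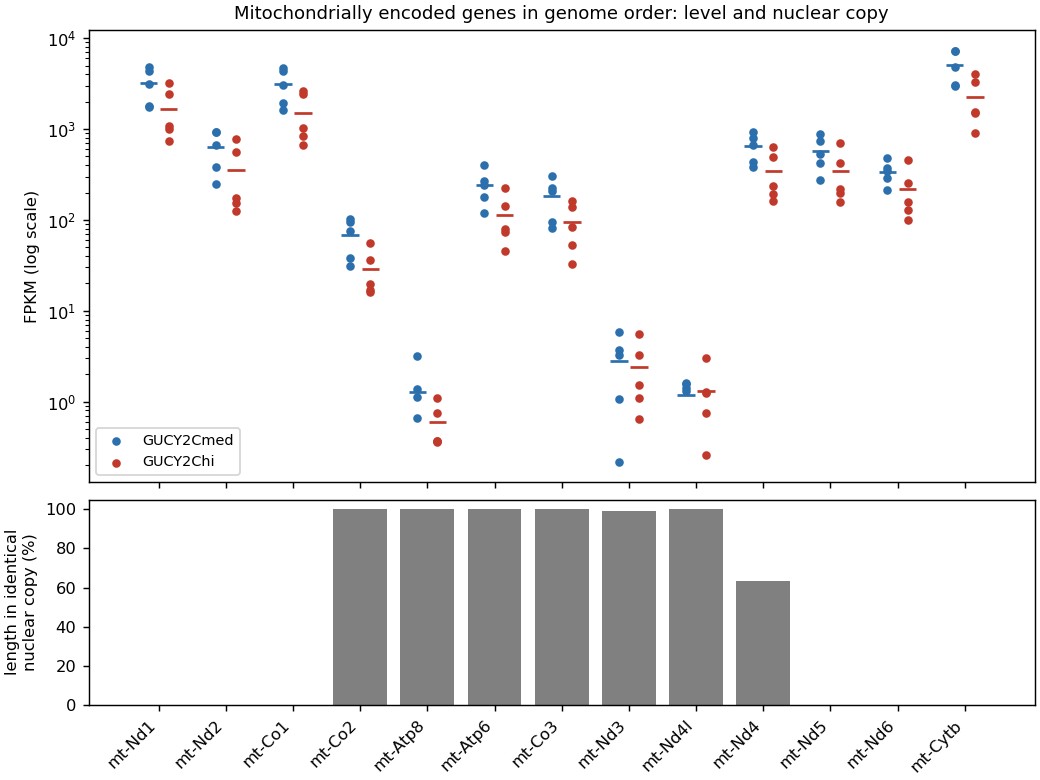
Upper panel, FPKM on a log scale of the 13 mitochondrially encoded genes in the order of the mitochondrial genome, with 1 point per library (libraries at 0 are not drawn) and lines for the mean of 5. Lower panel, percent of each gene's length with an identical copy in the nuclear genome. The low levels of mt-Co2, mt-Atp8, mt-Nd3 and mt-Nd4l fall where the lower panel is at or near 100%. mt-Atp6 and mt-Co3 are also at 100% there but stand at 242 and 183 FPKM on average in GUCY2Cmed cells.

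Nuclear respiratory genes are known to share promoter motifs of the transcription factors NRF1, GABPA and YY1, so their promoters were searched as a description of genes that moved together. RefSeq promoter windows of GRCm38.p6, from 250 bases before to 50 bases after each start, were at hand for 68 of 87 nuclear symbols. On either strand, the NRF1 motif GCGCATGCG was found in 9 of 68 genes (13.2%, against 1.95% of 27025 genes in the table), the GABPA motif CCGGAAGT in 5 (7.35% against 4.31%) and the YY1 motif AAGATGGCG in 7 (10.3% against 1.64%). Matches of different motifs did not overlap. Of the 15 genes called lower that had a window, NRF1, GABPA and YY1 matched in 1, 1 and 2, and of the 53 others in 8, 4 and 5. The YY1 motif lay 22 to 35 bases after the start in 6 of its 7 genes, and after the start in 55.8% of all 443 genes that hold it. The 120 bases before the RefSeq start are shown for Cycs, Ndufa11 and Uqcr11, as examples of an NRF1 or GABPA match shortly before the start (in capitals). Uqcr11 also has an NRF1 match whose first base lies at -5 from the start. It runs past the start, so it is not in capitals. None of the 3 genes passed the threshold for lower expression. All are written 5′ to 3′ on the strand of the gene.
Cycs (NRF1, chr6:50566570-50566689, minus strand): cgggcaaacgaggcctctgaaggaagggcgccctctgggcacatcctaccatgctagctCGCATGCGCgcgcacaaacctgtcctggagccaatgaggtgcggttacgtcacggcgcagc
Ndufa11 (NRF1, chr17:56717642-56717761, plus strand): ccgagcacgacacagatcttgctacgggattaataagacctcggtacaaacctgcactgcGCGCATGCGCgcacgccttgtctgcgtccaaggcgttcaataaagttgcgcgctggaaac
Uqcr11 (GABPA, chr10:80406822-80406941, minus strand): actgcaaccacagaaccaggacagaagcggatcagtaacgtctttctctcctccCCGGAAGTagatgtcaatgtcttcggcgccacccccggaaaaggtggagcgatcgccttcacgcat

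Of the genes that feed and regulate the chain, those of pyruvate dehydrogenase and the citric acid cycle were called lower most often. Of 18 tested 15 were lower (10 with the replicate block, 15 without GUCY2Chi libraries 12 and 15), against 8.79% of all genes (4.96% and 13.9%), and the median log2 fold change was -1.16, against 0.09 for all genes. Mdh2, malate dehydrogenase, fell by 1.72 and Cs, citrate synthase, by 1.68 (adjusted p = 0.00212 and 0.00345, edgeR).

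Other dehydrogenases that pass electrons to ubiquinone differed among themselves. Of 8 tested 3 were lower and 1 higher (median -0.81), against 8.79% and 13.9% of all genes. With the replicate block 3 were lower and 0 higher, against 4.96% and 8.24%. Without GUCY2Chi libraries 12 and 15 these were 3 and 1, against 13.9% and 17.4%. Chdh, choline dehydrogenase, fell by 2.47 and Etfdh, which takes electrons from fatty acid oxidation, by 1.43. Sqor, which oxidises sulfide, stood at 53.1, 78.3, 51.9, 32.3 and 53.6 cpm in GUCY2Cmed and 167, 159, 148, 273 and 93.3 cpm in GUCY2Chi libraries and rose by 1.64 (SE 0.30, adjusted p = 0.00163, and 0.0123 with the replicate block, edgeR).

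The adenine nucleotide translocators, which exchange ADP for ATP across the inner membrane, moved in opposite directions. Slc25a5 stood at 5206, 8011, 7712, 7884 and 8403 cpm in GUCY2Cmed and 1657, 1272, 4100.3, 2296 and 3798 cpm in GUCY2Chi libraries and was lower (log2 fold change -1.504 ± 0.37 SE, adjusted p = 0.00809, and 0.0131 with the replicate block, edgeR). Slc25a4 stood at 60.9, 15.6, 78.4, 58.1 and 36.7 cpm in GUCY2Cmed and 271, 306, 197, 331 and 225 cpm in GUCY2Chi libraries and rose by 2.41 (SE 0.37, adjusted p = 0.000662). Slc25a5 nevertheless had the higher cpm in every library. Of 9 carriers, pores and uncoupling proteins tested, 4 were lower and 1 higher (median -0.81), against 8.79% and 13.9% of all genes. With the replicate block 2 were lower and 1 higher, against 4.96% and 8.24%. Without GUCY2Chi libraries 12 and 15 these were 5 and 1, against 13.9% and 17.4%. The 1 higher of 9 was near the background. The phosphate carrier Slc25a3 fell by 1.44.

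Calls among assembly factors depended on GUCY2Chi libraries 12 and 15. Of 16 for complex I, 10 for complexes II and III, 21 for complex IV and 5 for ATP synthase, 1, 1, 3 and 3 were lower and none higher, with medians of -0.36, -0.16, -0.51 and -1.14. With the replicate block 0, 0, 2 and 2 were lower, and without GUCY2Chi libraries 12 and 15 6, 2, 9 and 5 were. Of all genes 8.79% were lower, 4.96% with the replicate block and 13.9% without those libraries. The 1 of 16 and 1 of 10 were thus near the background. Ndufaf1, of complex I, fell by 0.73, and Ttc19, of complex III, fell by 0.68 (adjusted p with the replicate block 0.0169 and 0.0151, edgeR). Sco1, which delivers copper to complex IV, fell by 1.40 (adjusted p = 0.000323, edgeR) and Coa7 by 1.27, and the ATP synthase factors Atpaf2 and Atpaf1 fell by 1.25 and 1.14.

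For the upkeep and transcription of the mitochondrial genome, 1 of 16 genes was lower and 0 higher (median -0.34, and 0 lower with the replicate block or without GUCY2Chi libraries 12 and 15), a share near the 8.79% of all genes. This was Mterf2, which fell by 1.12 (adjusted p = 0.00456, and 0.016 with the block). For the processing and stability of mitochondrial RNA, 4 of 15 were lower (median -0.52, 1 with the block, and 4 without those libraries), among them Tbrg4 and Hsd17b10, which fell by 1.55 and 1.01, the latter not past the threshold with the block (adjusted p = 0.0238). Of all genes, 8.79% were lower, 4.96% with the block and 13.9% without those libraries. The 1 of 15 with the block was near the background. Of 13 coactivators and transcription factors of respiratory genes, 2 were lower and 1 higher (median -0.40), and the counts were the same with the block, with another gene in place of Ppargc1a. Without GUCY2Chi libraries 12 and 15 they were 3 and 1. Against 8.79% lower and 13.9% higher among all genes, the 2 and 1 of 13 were near the background. With the block 4.96% of all genes were lower and 8.24% higher, and without those libraries 13.9% and 17.4%. Ppargc1a, the coactivator PGC-1 alpha, stood at 37.8, 33.5, 30.5, 30.8 and 35.5 cpm in GUCY2Cmed and 3.70, 6.27, 15.1, 4.47 and 18.8 cpm in GUCY2Chi libraries. It fell by 1.80 (SE 0.42, adjusted p = 0.00635, and 0.0104 with the block) and its relative Ppargc1b by 1.31 (adjusted p = 0.00223, edgeR). Gabpb1, the partner of GABPA in the factor also called NRF2, stood at 35.8 ± 6.37 cpm (SD, n = 5) in GUCY2Chi and 18.2 ± 1.85 cpm (SD, n = 5) in GUCY2Cmed cells and rose by 0.97 (adjusted p = 0.00119, edgeR).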

How the data were processed

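RNA of GUCY2Chi and GUCY2Cmed cells was sequenced in 10 libraries, 5 per group, with 10903958 to 15307932 counts each. The deposited table holds, for each gene and library, the whole-number read count the authors obtained without normalization, from reads that per the labels were aligned with STAR. The FPKM values, as deposited by the authors, divide counts by gene length and reads counted on genes, and were used only to compare levels between genes. The submitters' processing notes name limma 3.40.6 and edgeR 3.26.8. The authors' 10 columns of normalized values and 3 columns of their own comparison (log2 fold change and p-values) were not used. The labels name mm9, but 86 of 86 nuclear members with a position overlapped it on GRCm38.p6 and 5 of 87 on NCBIM37, so positions are given on GRCm38.

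Counts were fitted in R 4.3.3 with edgeR 4.0.16 (quasi-likelihood test, TMM factors, group only, Benjamini-Hochberg adjustment over 15703 genes, threshold 0.01), and limma 3.58.1 and DESeq2 1.42.0 were alternatives. Scripts were tested on simulated data. Levels are TMM-normalized cpm. Per the labels 5 mice were each sorted into both groups and both groups bear the same 5 numbers, so libraries of a number were taken as 1 mouse, and the mouse number was fitted as replicate block as an alternative. Deviations of same-mouse libraries from their group means correlated at -0.22 to 0.27 across genes. Values summed over members carry no test. Copies were found with megablast in NCBIM37. Alternatives were other tests, scalings, filters and thresholds, and libraries left out.

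Genes named are the 13 mitochondrially encoded genes, 22 core nuclear subunits (1 of which is not reported here), 16 genes of isoform sets, the 10 called nuclear genes with the largest fold change in each direction, and up to 2 called genes per direction in each related list. Atp5g1 to Atp5g3, Atp5s, Ndufa9, Ndufab1, Ndufb2, the pseudogenes and genes given as examples were named after their values were seen. The members and lists were chosen with earlier results of these data known.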

Additional observations from a re-analysis of the deposited data

Results flagged for a closer look

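In groups of 5 libraries, 11 of 148 groups of values held a library whose gap to the next exceeded 0.71 of the group's range (Dixon's 95% value), where chance gives about 1 in 20. In GUCY2Cmed library 2 the level was low for Sdhd (1205 cpm, others 1896 to 2055), Uqcrc1 (1898 cpm, others 2787 to 2983) and Slc25a5 (5206 cpm, others 7712 to 8403). Cox7a2l was high in GUCY2Chi library 14 (238 cpm, others 130.1 to 149.6), and Gabpb1 in GUCY2Cmed library 15 (21.5 cpm, others 16.9 to 17.7). The other 6 are genes with few counts. mt-Nd4l was at 0 cpm in GUCY2Cmed library 7 (others 0.432 to 0.526), Cox6a2 at 0.567 cpm in GUCY2Chi library 15, Cox7b2 at 0.379 cpm in GUCY2Chi library 12 and 0.432 cpm in GUCY2Cmed library 12, and Cox8b at 0.0603 cpm in GUCY2Chi library 7 and 0.0856 cpm in GUCY2Cmed library 15.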

How the results depend on the processing

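No member was called higher under any alternative, and no named gene that was called changed direction. For the 11 mitochondrially encoded genes (0 called), DESeq2 called 2, an adjusted p under 0.05 4, the replicate block 8 with edgeR and 10 with limma-voom, leaving out GUCY2Chi libraries 12 and 15 9, and leaving out both libraries of mice 12 and 15, added after the data were seen, 2. For the 81 nuclear genes (21 called), the same settings gave 33, 48, 15, 33, 72 and 57. At least 10 counts in every library gave 12 of the 80 it kept, and library sizes alone 11. Of all 15703 genes (15682 in DESeq2), the same settings in the same order called 2235, 2767, 779, 1382, 2181 and 1544 lower, against 1381 in the main fit. At least 10 counts in every library called 952 of 10518 lower, and library sizes alone 557. Leaving out 1 library gave 0 to 1 mitochondrially encoded, 3 to 37 nuclear and 2217 to 4152 of all genes called. Of all genes (3567 called), 6134 passed 0.05 and 2073 the replicate block in edgeR. With library sizes alone the median over all genes was 0.39 in place of 0.09, and the nuclear median lay 1.17 below it in place of 1.14. Without a filter the median over all genes was 0.21. The replicate block changed no other call of a gene named here. The mean ratio of GUCY2Chi to GUCY2Cmed, 0.468 for the mitochondrial share and 0.427 for the nuclear sum, stayed within 0.399 to 0.499 and 0.322 to 0.524. Of 1558 gene values under alternatives, 1234 were unchanged in call and direction, 216 lost the call, 98 gained it and 10 uncalled values moved by more than their standard error. The cause was not tested. With 5 libraries per group, and counts of mitochondrially encoded genes shared with nuclear copies, a p that misses the threshold does not show that levels were alike.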
